A study of Mus musculus with 8 samples.

Results

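The comparison described here is that of Dicer conditional knockout (cKO) with wild-type mouse embryos at E17.5, late in gestation. Its changes rest on the 4 arrays that the labels give to this stage, 2 cKO and 2 wild type, out of 8 arrays in the series. The other 4 hold the same genotypes at E16.5 and also enter the estimate of spread. The tissue was footpad skin of C57BL6 background, the hairless skin of the paw in which eccrine sweat glands form. Per the labels, each array was hybridised with RNA pooled from 3 to 5 embryos. All 4 groups share strain and tissue, and the labels name neither the Cre driver nor the cells in which Dicer was deleted. The arrays carried probes for mature miRNAs, and none for Dicer mRNA, which leaves the completeness of the deletion unmeasured. With 2 pools per group the number of arrays limits the precision, and p-values speak to variation among pools rather than among single embryos.

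Dicer is the cytoplasmic endonuclease that cuts the loop from a precursor hairpin and leaves a short duplex, of which 1 strand, the guide, is kept by an Argonaute protein while the passenger strand is mostly lost. A guide finds its target mRNAs chiefly through its seed, the bases from position 2 to position 8, and lowers their translation and stability. In developing skin the epidermis and its appendages express a characteristic set of miRNAs, among them the miR-200 family, miR-203 and miR-205, whereas the dermis, muscle, vessels and blood that come with dissected footpad express others.

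The sequences that carry most of the comparison are given below, 5′ to 3′, from RefSeq (GRCm38.p6), with the seed in capitals. They are the miRNAs with the largest falls, grouped by shared seed, then the seed group of 5 that fell together, the pair with 1 seed but opposite calls, and 3 arms with the largest increases.
miR-200c-3p: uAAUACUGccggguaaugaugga
miR-200b-3p: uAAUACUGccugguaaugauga
miR-429-3p: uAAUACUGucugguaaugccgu
miR-141-3p: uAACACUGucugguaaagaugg
miR-200a-3p: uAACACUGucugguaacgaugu
miR-203-3p: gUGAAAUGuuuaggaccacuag
miR-205-5p: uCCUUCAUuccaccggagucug
miR-183-5p: uAUGGCACugguagaauucacu
miR-96-5p: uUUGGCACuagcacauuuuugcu
miR-182-5p: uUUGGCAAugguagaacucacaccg
miR-31-5p: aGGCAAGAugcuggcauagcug
miR-34a-5p: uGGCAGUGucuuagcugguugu
miR-6997-5p: uAACAGGCuggagaggugcaga
miR-17-5p: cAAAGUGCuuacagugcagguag
miR-20a-5p: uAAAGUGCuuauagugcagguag
miR-20b-5p: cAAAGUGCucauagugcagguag
miR-93-5p: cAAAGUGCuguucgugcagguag
miR-106b-5p: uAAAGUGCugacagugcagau
miR-196a-5p: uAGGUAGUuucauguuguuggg
miR-196b-5p: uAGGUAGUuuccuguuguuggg
miR-205-3p: gAUUUCAGuggagugaagcuca
miR-196b-3p: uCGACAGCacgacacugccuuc
miR-181a-1-3p: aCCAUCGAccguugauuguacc

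Of 1881 mouse miRNAs on the array, the E17.5 cKO arrays detected 382 and 349 and the wild-type arrays 381 and 374, a miRNA being detected where over 50% of its probe's spots were well above background. A miRNA was tested where both arrays of any of the 4 groups detected it, which left 383, of which 337 were detected on all 4 E17.5 arrays. Levels are given as log2 scaled signal, in which 0 is the array's own 75th percentile over the 474 probes detected on all 8 arrays and −4.24 is the floor to which dimmer values were raised. Changes are cKO minus wild type on that scale with their standard error (SE, n = 2 pools per genotype), and p-values are limma's, adjusted over all 383 miRNAs by Benjamini-Hochberg. The spread behind the SE and the p-values was estimated from all 8 arrays, those of E16.5 included. A miRNA is said to have fallen or risen where its adjusted p was under 0.05. Across miRNAs, which are not independent replicates, the 2 cKO arrays had r = 0.998 and the 2 wild-type arrays r = 0.999. All 7 markers taken for skin epithelium (the guide strands of the miR-200 family, miR-203-3p and miR-205-5p) were detected on both wild-type arrays, and so were those of fibroblasts, skeletal muscle, endothelium, blood and cartilage, which dissected skin also holds. All 8 arrays share 1 slide and each group has a slide column to itself, so column and group cannot be told apart.

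At E17.5, 39 miRNAs fell (10.2% of those tested), 138 rose (36%) and 206 did not pass, so that 46.2% were called in either direction. The falls were fewer and deeper. Changes are counted here as fitted, with values at the floor held there, so that those of miRNAs at the floor in 1 genotype are smallest possible sizes. Of the 39 falls, 15 were at least 1 on the log2 scale, that is 2-fold, 9 lay between 0.5 and 1 and 15 were smaller. Of the 138 increases none was as large as 1 (0 miRNAs), 21 were at least 0.5 and 117 were smaller, and the median of all tested miRNAs was 0.13. The direction of small changes depended on how the arrays were scaled. Before scaling, the log2 median over the probes detected on all arrays was 7.34 and 7.19 on the cKO arrays and 7.52 and 7.52 on the wild-type arrays, while the 19 positive control probes averaged 14.94 and 14.93 in cKO against 14.84 and 14.82 in wild type. Setting the arrays to equal upper miRNA signal thus raises cKO against wild type, and setting them to equal control signal lowers it. Under all 6 scalings tried, 27 miRNAs fell (7.05%) and 2 rose (0.522%).

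**Figure D1:**
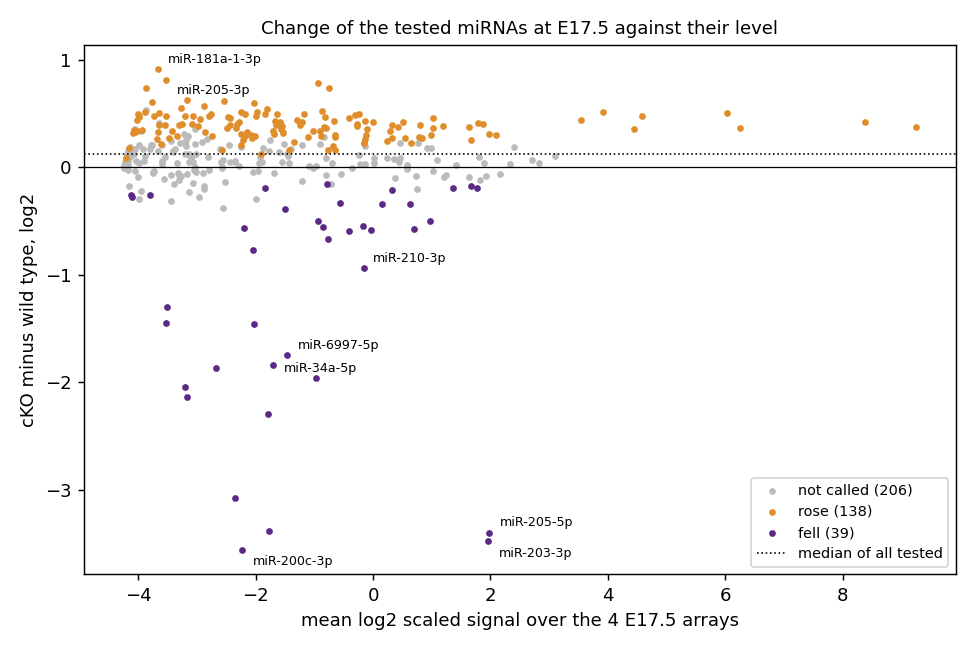
Change at E17.5 (vertical axis, cKO minus wild type, log2) of the 383 tested miRNAs against their mean log2 scaled signal over the 4 E17.5 arrays (horizontal axis); each point is a miRNA, coloured by its call, and the dotted line is the median of all tested, 0.13. The 39 falls reach −3.56, whereas the 138 increases under the main scaling all lie under 1.

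The deepest falls were in miRNAs of the skin epithelium. miR-200c-3p, which restrains the epithelial-to-mesenchymal transition by acting on Zeb1 and Zeb2, was at −4.22 and −3.79 in the cKO pools against −0.53 and −0.35 in the wild-type pools. It fell by 3.56 ± 0.15 (SE, adjusted p = 1.28e-04), which left 8.45% of the wild-type level. miR-203-3p, which drives keratinocytes out of the proliferative state, was at −0.02 and 0.46 in cKO against 3.61 and 3.79 in wild type, a change of −3.48 ± 0.17 (adjusted p = 1.68e-04). The groups of both were far apart, with 3.26 for miR-200c-3p and 3.15 for miR-203-3p between the nearest cKO and wild-type arrays. miR-205-5p, abundant in basal keratinocytes, was at 0.08 and 0.45 in cKO against 3.61 and 3.73 in wild type, a change of −3.40 ± 0.13 (adjusted p = 1.17e-04). In bulk tissue, fewer cells of a type and less of a miRNA per cell cannot be told apart.

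The 4 remaining guide strands of the family fell as well. miR-141-3p, from the same locus as miR-200c-3p, was at −3.65 and −3.27 in cKO against −0.17 and 0.02 in wild type (−3.39 ± 0.14). miR-429-3p was at −4.11 and −3.66 against −0.86 and −0.76 (−3.08 ± 0.16). miR-200a-3p was at −3.09 and −2.79 against −0.67 and −0.63 (−2.29 ± 0.10). In each of these the cKO pools lay below the wild-type pools by several times the spread of either pair. miR-200b-3p stood at −2.09 and −1.82 in cKO against −0.01 and 0.03 in wild type (−1.97 ± 0.11, adjusted p = 2.12e-04), which left 25.6% of the wild-type level. All 5 tested members of the 10 in the family, which include the passenger strands, fell under each of the 6 scalings; the 5 others were not detected on both arrays of any group. The family's median was −3.08 against 0.13 for all tested.

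Within the family the falls differed in size among members of 1 seed and of 1 locus. The 3 members with the seed AAUACUG changed by between −3.56 and −1.97 and the 2 with AACACUG by −3.39 and −2.29. By locus, miR-200c-3p and miR-141-3p lie together at chr6:124717917-124718346 (GRCm38.p6, minus strand) and changed by −3.56 and −3.39. miR-200b-3p, miR-200a-3p and miR-429-3p lie at chr4:156053916-156055706 (minus strand) within the host transcript Gm13648 and changed by −1.97, −2.29 and −3.08. The log2 ratio of miR-429-3p to miR-200b-3p within an array, which dividing the array by a single factor does not alter as long as both lie above the floor, was −2.02 and −1.84 in cKO against −0.85 and −0.79 in wild type. These 2 neighbours thus changed unequally. The ratio in cKO minus that in wild type was −1.11, and between −1.18 and −1.11 under the 6 scalings, and the genotypes did not overlap.

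The hairpin of miR-203 (chr12:112130889-112130948, plus strand) lost both arms. Its passenger arm miR-203-5p was at the floor and not well above background on both cKO arrays against −2.18 and −2.03 in wild type, at least 4.40-fold lower (adjusted p = 2.62e-05), a bound set by the floor (fitted change −2.14). Its 2 other detected probes gave −1.45 and −0.68. A miRNA whose arrays all lie at the floor has no spread there, and its p-value understates the spread between pools.

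The hairpin of miR-205 (chr1:193507467-193507524, minus strand, within Mir205hg) gave arms of opposite sign. miR-205-3p, the passenger arm, was at −3.35 and −2.87 in cKO against −3.97 and −3.89 in wild type, so the cKO pools were the higher ones while those of miR-205-5p were the lower ones. It rose by 0.82 ± 0.17 (adjusted p = 0.0143), a call made under 3 of the 6 scalings, and remained above 0 at 0.32 under the scaling least favourable to increases. Within an array the log2 ratio of miR-205-5p to miR-205-3p was 3.43 and 3.32 in cKO against 7.58 and 7.62 in wild type, a shift of −4.22. A second probe of miR-205-3p gave a change of 0.54.

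The miR-183 cluster (chr6:30165962-30169732, minus strand, within Mirc35hg), made in sensory cells and in hair follicle epithelium, fell in all 3 of its tested guide strands. miR-182-5p was at −3.80 and −3.43 in cKO against −1.78 and −1.71 in wild type (−1.87 ± 0.14). miR-96-5p was at −2.92 and −2.58 against −1.35 and −1.24 (−1.46 ± 0.14). miR-183-5p was at the floor and not well above background on both cKO arrays against −2.81 and −2.79 in wild type, at least 2.72-fold lower. Each held under all 6 scalings. Second probes gave −1.43 for miR-96-5p but smaller changes for miR-182-5p (−0.90) and miR-183-5p (−0.74). The cluster's median was −1.46, with the fitted value of miR-183-5p.

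**Figure D2:**
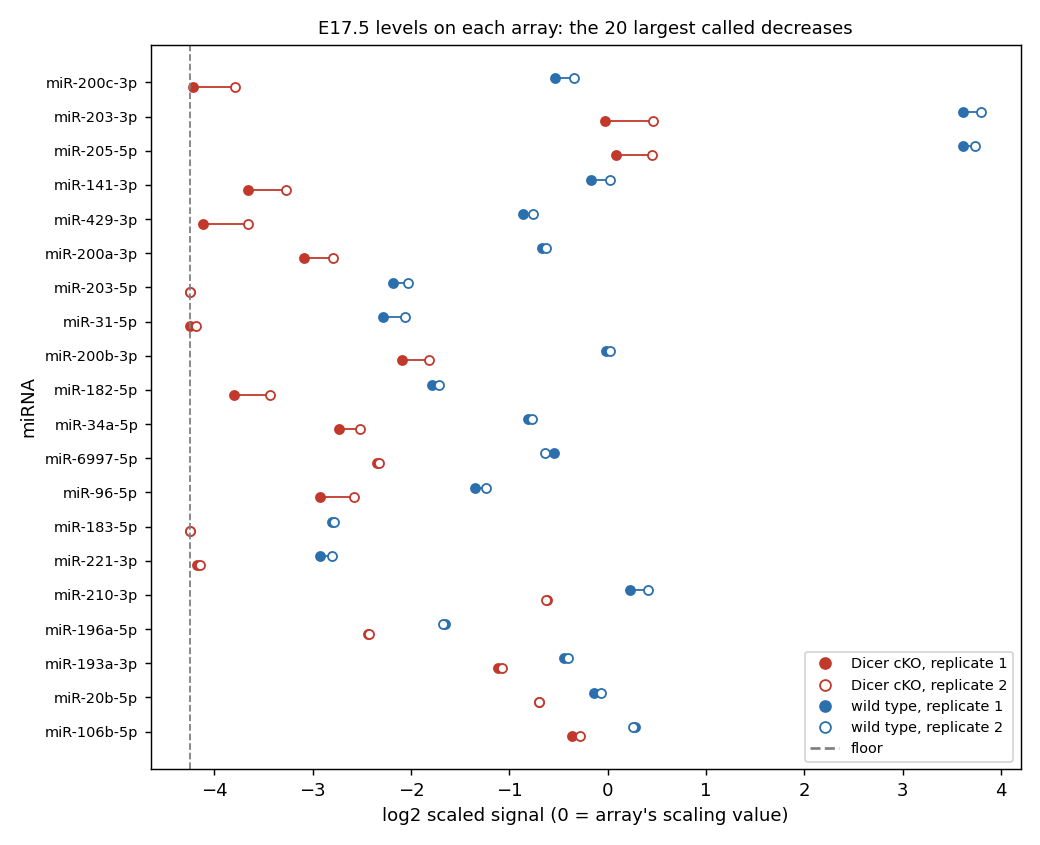
Log2 scaled signal (horizontal axis) on each E17.5 array for the 20 largest called decreases, ordered from miR-200c-3p to miR-106b-5p; red is Dicer cKO, blue wild type, filled circles replicate 1, open circles replicate 2, and the dashed line is the floor at −4.24. In every row both cKO circles lie to the left of both wild-type circles.

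The replicates of the epithelial miRNAs differed in a common direction. Of the 11 tested members of the miR-200, miR-203, miR-205 and miR-183 groups that fell, 9 lay above the floor on a cKO array, and in all 9 the second cKO pool was the higher, by 0.27 to 0.49 (median 0.37). Over all tested miRNAs the median of this difference was 0.03. In wild type the second pool was the higher in 11 of 11, by 0.02 to 0.19, against a median of 0 over all tested. The 2 cKO pools thus differed more in these miRNAs than the 2 wild-type pools did, although both stayed far below them.

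Among miRNAs of keratinocyte growth and differentiation 2 fell by more than 1. miR-31-5p (chr4:88910614-88910635, minus strand, within Gm49890), which promotes keratinocyte proliferation, was at −4.24 and −4.19 in cKO, detected on 1 of 2 arrays, against −2.28 and −2.06 in wild type (−2.04 ± 0.11, adjusted p = 2.08e-04). miR-34a-5p (chr4:150068473-150068494, plus strand), a target of p53, was at −2.74 and −2.52 in cKO against −0.81 and −0.77 in wild type (−1.84 ± 0.07, adjusted p = 1.17e-04). The cKO and wild-type pools of both were 1.90 and 1.72 apart at their nearest. The passenger arm miR-31-3p was near the floor throughout, not well above background in cKO and at −4.05 and −3.88 in wild type, at least 1.21-fold lower, and a second probe showed no difference (0 on the log2 scale). The second probe of miR-31-5p gave −1.54 and that of miR-34a-5p −1.86.

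The rest of that list moved little. Of its 8 tested members 4 fell, 1 rose and 3 did not pass, with a median of −0.18. Among all tested miRNAs 10.2% fell and 36% rose. miR-24-3p, which accompanies keratinocyte differentiation, fell by 0.17. miR-21a-5p was at −0.20 (adjusted p = 0.0636), miR-27b-3p at −0.03 and miR-23b-3p at 0.10, the last below 0 under 4 of the 6 scalings. miR-125b-5p, which holds skin stem cells back from differentiation, was at 4.62 and 4.62 in cKO against 4.30 and 4.23 in wild type and rose by 0.35, but was at −0.14 under control-probe scaling and −0.03 without scaling.

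Outside the epithelial groups, miR-6997-5p (chr2:29995955-29995976, plus strand, within Sptan1) was at −2.35 and −2.32 in cKO against −0.55 and −0.64 in wild type. It fell by 1.74 ± 0.11 (adjusted p = 3.34e-04), and its 2 other probes gave −1.74 and −1.65. It did not fall at E16.5, as described below. miR-221-3p, linked to proliferation, was at −4.18 and −4.14 in cKO against −2.93 and −2.80 in wild type (−1.30 ± 0.05, adjusted p = 1.17e-04). That value rests on the removal of outlier spots: with them kept the change was 0.21 (adjusted p = 0.932), while a second probe gave −0.96. miR-222-3p, its neighbour on chromosome X, lay at the floor on all 4 E17.5 arrays.

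miR-210-3p (chr7:141221407-141221428, minus strand), induced by hypoxia through HIF1A, was at −0.61 and −0.62 in cKO against 0.22 and 0.41 in wild type (−0.93 ± 0.08, adjusted p = 9.42e-04). miR-193a-3p was at −1.11 and −1.08 in cKO against −0.44 and −0.41 in wild type (−0.67 ± 0.03). miR-193b-3p, which shares its seed ACUGGCC, fell by 0.50 ± 0.04, and miR-365-3p fell by 0.55 ± 0.04. miR-365-3p is made from the locus of miR-193b-3p at chr16:13449570-13453916 and from another at chr11:79726467-79726488, and the array does not separate them. These 4 fell under all 6 scalings, and in each both cKO pools lay below both wild-type pools.

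Members of the miR-17 cluster and of its paralogous clusters, which are induced by Myc and E2f and favour cell division, fell in 7 of 10 tested members, against 10.2% of all tested miRNAs; 3 further listed members were not tested. Their median was −0.46, or −0.59 relative to the median of all tested, and between −0.69 and −0.55 relative to it under the 6 scalings. The members differed by seed. All 5 members with the seed AAAGUGC fell by a similar amount: miR-20b-5p changed by −0.59, miR-106b-5p by −0.59, miR-20a-5p by −0.57, miR-17-5p by −0.56 and miR-93-5p by −0.55. miR-20a-5p, for example, was at 0.39 and 0.43 in cKO against 0.97 and 0.98 in wild type, and miR-106b-5p at −0.36 and −0.28 against 0.28 and 0.26. miR-93-5p passed under 5 of the 6 scalings and the other 4 of the seed group under all 6.

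Members of the same primary transcripts with other seeds changed less. In the cluster at chr14:115043684-115044496 miR-18a-5p changed by −0.38 and miR-92a-3p by −0.21, both of which fell, while miR-19a-3p was at −0.15 (adjusted p = 0.0911) and miR-19b-3p at −0.06. miR-92a-3p and miR-19b-3p are also made from the locus of miR-20b-5p on chromosome X, and the array does not separate their sources. In the Mcm7 intron at chr5:138165332-138165807 miR-25-3p was at −0.02 (adjusted p = 0.902) beside miR-93-5p and miR-106b-5p. The unequal change is seen within arrays. The log2 ratio of miR-20a-5p to miR-19b-3p was −1.72 and −1.73 in cKO against −1.20 and −1.22 in wild type, and that of miR-106b-5p to miR-25-3p was −0.89 and −0.89 against −0.32 and −0.32. Neither pair of values overlapped. The passenger arm miR-17-3p was called higher (0.13, adjusted p = 0.0475) but was below 0 under 4 of the 6 scalings, and miR-106b-3p was at 0.21 (adjusted p = 0.144), below 0 under 3 of the 6 scalings, with −0.28 under control-probe scaling.

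The remaining falls were small. The families of miR-23, miR-27 and miR-24 fell in 3 of 5 members, against 10.2% of all tested miRNAs, with a median of −0.17. miR-27a-3p was at 0.71 and 0.75 in cKO against 1.15 and 1.30 in wild type (−0.50 ± 0.06, adjusted p = 0.00190) and fell under all 6 scalings, whereas miR-27b-3p, with the same seed, differed by 0.03. The log2 ratio of miR-27a-3p to miR-27b-3p within an array was −0.25 and −0.29 in cKO against 0.11 and 0.27 in wild type, so the pair changed unequally. miR-23a-3p fell by 0.19. miR-107-3p (−0.34) and miR-103-3p (−0.34), which share a seed and come from introns of the pantothenate kinase genes, fell, as did miR-301a-3p (−0.33), miR-1839-5p (−0.26), miR-185-5p (−0.25), miR-331-3p (−0.19) and miR-345-5p (−0.16). Of these 8 miRNAs after miR-27a-3p, only miR-1839-5p fell under all 6 scalings, with both of its cKO arrays at the floor. The fall of miR-185-5p was not seen with its second probe, which gave −0.005.

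The let-7 family, which rises as tissues differentiate and restrains Lin28 and Ras genes, showed little change. Of 9 tested members 1 fell, beside 10.2% of all tested miRNAs, namely let-7d-5p (−0.19, adjusted p = 0.0344). The other 8 did not pass, from miR-98-5p at −0.14 to let-7a-5p at 0.11. let-7a-5p was at 3.15 and 3.14 in cKO against 3.01 and 3.07 in wild type. The family's median was 0.02 and lay below the median of all tested under each scaling, by between 0.06 and 0.20, and all 9 members fell under control-probe scaling.

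**Figure D3:**
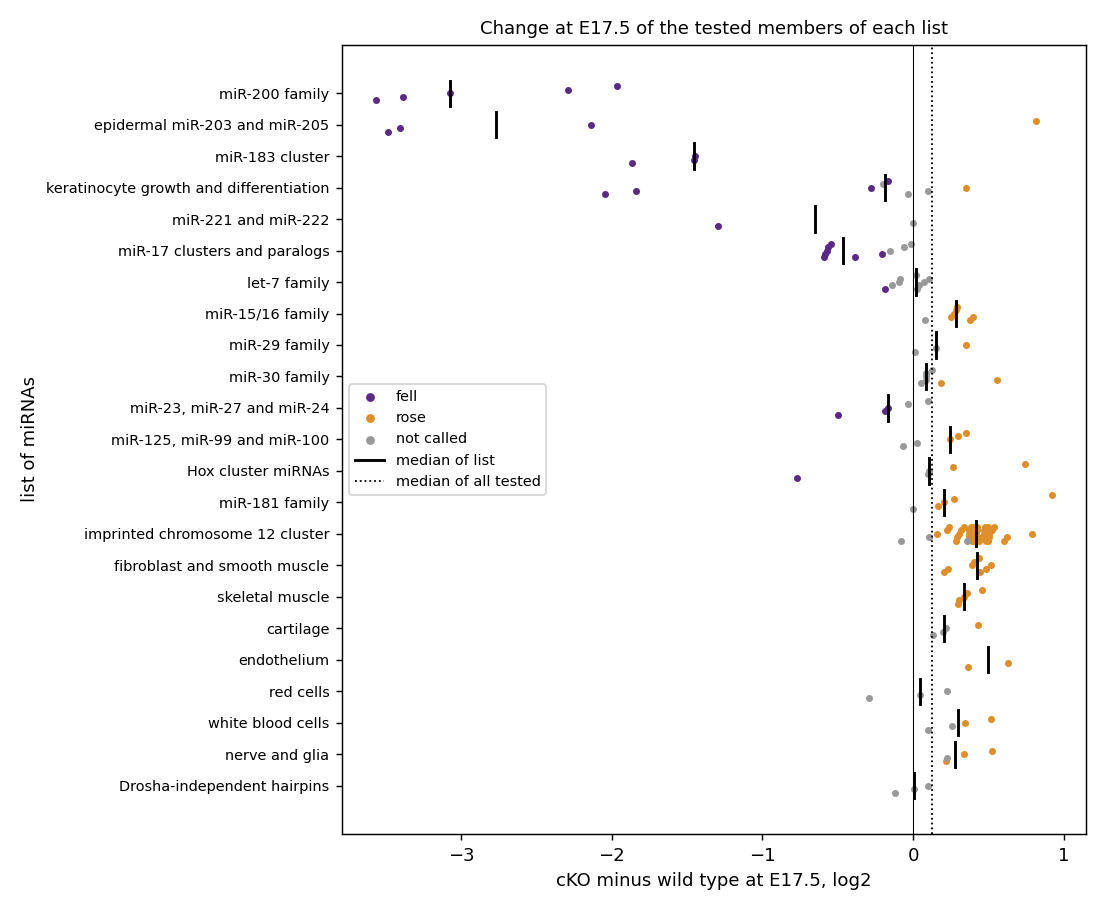
Change at E17.5 (horizontal axis, cKO minus wild type, log2, main scaling) of the tested members of 23 lists of miRNAs; each point is a member coloured by its call, the black bar is the list's median and the dotted line the median of all tested, 0.13. The miR-200, miR-203 and miR-205, and miR-183 lists lie far to the left except for miR-205-3p at 0.82, and no list lies as far to the right; under control-probe scaling the medians of the chromosome 12, fibroblast and muscle lists are −0.08, −0.07 and −0.16.

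The miRNAs of the Hox clusters did not move together. miR-196a-5p, made from loci in the Hoxb and Hoxc clusters, was at −2.44 and −2.43 in cKO against −1.65 and −1.68 in wild type (−0.77 ± 0.04, adjusted p = 2.55e-04). miR-196b-5p, made from the Hoxa cluster (chr6:52230129-52230150, minus strand) and sharing the seed AGGUAGU, was at 0.02 and −0.01 against −0.20 and −0.32. It rose by 0.26 ± 0.07 under the main scaling (adjusted p = 0.0305) and was below 0 under 3 of the 6 scalings. The log2 ratio of miR-196a-5p to miR-196b-5p within an array was −2.46 and −2.42 in cKO against −1.46 and −1.35 in wild type, a difference of −1.03 that lay between −1.03 and −0.96 under the 6 scalings. The 3 other detected probes of miR-196a-5p gave −1.31, −1.23 and −0.86. miR-10a-5p and miR-10b-5p, at 0.10 and 0.11, did not pass.

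The other arm of the miR-196b hairpin gave 1 of the 2 increases called under all 6 scalings. miR-196b-3p was at −3.59 and −3.41 in cKO, and at the floor and not well above background on both wild-type arrays. It was at least 1.67-fold higher (adjusted p = 0.00132), with fitted changes of 0.74 under the main and 0.62 under control-probe scaling. With wild type held at the floor, scaling shifts this change less than that of a miRNA above the floor. Passing all 6 scalings is thus a weaker check here, and the p-value understates the spread between pools. The other of the 2 increases was miR-181a-1-3p (chr1:137966508-137966529, plus strand), a passenger arm, at −3.24 and −3.15 in cKO against −4.02 and −4.21 in wild type. It rose by 0.92 ± 0.08 (adjusted p = 8.10e-04), the largest fitted increase of the comparison, and by 0.43 under control-probe scaling. In both the cKO arrays were above the wild-type arrays, close to the limit of detection in wild type.

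The guide strands of the miR-181 family, known from lymphocytes and muscle, changed less than that passenger arm. miR-181a-5p was at 0.97 and 0.97 in cKO against 0.77 and 0.63 in wild type and rose by 0.27, but was at −0.22 under control-probe scaling. miR-181b-5p (0.20) and miR-181c-5p (0.17) rose under the main scaling and miR-181d-5p was at 0.00; all 3 were below 0 under 3 or more of the 6 scalings. The arms of other hairpins were compared as well. Of 48 hairpins with both arms tested, both fell in 2 and both rose in 22 under the main scaling. The arms of miR-199a are counted once for each of its loci. Among all tested single miRNAs 10.2% fell and 36% rose. Calls were opposite in 2 hairpins under that scaling, those of miR-205 and miR-17. The fitted changes of the arms differed by more than 1 in 3, those of miR-205, miR-31 and miR-203. In miR-31 and miR-203 the passenger arm lay at the floor on both cKO arrays. Its fitted change is thus a smallest possible size, and whether the arms of these hairpins moved apart cannot be told.

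Several further miRNAs rose under the main scaling, in each case by less than 0.8. miR-342-3p (chr12:108658680-108658702, plus strand), hosted by Evl and best known from blood cells, was at −0.30 and −0.45 in cKO against −1.04 and −1.20 in wild type (0.74 ± 0.09, adjusted p = 0.00225). miR-574-3p was at −2.61 and −2.58 against −3.16 and −3.17 (0.57 ± 0.04). miR-30e-3p was at −3.06 and −2.92 against −3.53 and −3.56 (0.56 ± 0.07). These 3 were called under 3 of the 6 scalings and stayed above 0 under control-probe scaling, at 0.25, 0.08 and 0.06. Their other arms did not pass or were smaller: miR-574-5p was at 0.11 (adjusted p = 0.649) and miR-30e-5p at 0.08, the latter −0.41 under control-probe scaling. miR-466g (0.61, adjusted p = 0.0432) and miR-483-3p (0.52, adjusted p = 0.0272), the latter from an intron of Igf2, rose with wider spread. For miR-466g 1 wild-type array was at the floor and the call was lost without either cKO array, where adjusted p was 0.122 and 0.175. miR-483-5p rose by 0.29 and was at −0.20 under control-probe scaling.

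The largest group of increases came from the imprinted cluster on chromosome 12, between Dlk1 and Dio3, whose maternal allele is transcribed as a long array of miRNAs in embryonic mesenchyme, muscle and nerve. Of 61 listed members 43 were tested. Under the main scaling 40 rose, against 36% of all tested miRNAs, none fell (0 of 43) and 3 did not pass. Their median was 0.41, or 0.29 relative to all tested, and lay above the median of all tested by 0.19 to 0.30 under the 6 scalings, although the median itself was −0.08 under control-probe scaling, where 5 members fell and none rose (0 of 43). miR-329-3p was the highest, at −0.47 and −0.62 in cKO against −1.40 and −1.27 in wild type (0.79 ± 0.09, adjusted p = 0.00214). miR-543-3p was at −2.21 and −2.24 against −2.85 and −2.85 (0.62 ± 0.05), and miR-376c-3p at −1.51 and −1.95 against −2.37 and −2.29 (0.60 ± 0.15, adjusted p = 0.0274). The call of miR-376c-3p, whose cKO pools lay far apart, was made under 2 of the 6 scalings.

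Members of the cluster from very different levels changed by similar amounts. miR-127-3p was at 2.00 and 1.97 in cKO against 1.56 and 1.59 in wild type (0.41 ± 0.04), and −0.08 under control-probe scaling. miR-411-5p was at −0.04 and −0.08 against −0.55 and −0.54 (0.48 ± 0.03), and −0.01 under control-probe scaling. Both arms of miR-379, at 0.42 (5p) and 0.54 (3p), and of miR-154, at 0.50 (5p) and 0.52 (3p), rose under the main scaling; of these, miR-379-5p was at −0.08 under control-probe scaling and the others were above 0. The 3 that did not pass were miR-494-3p at −0.08, miR-433-3p at 0.10 and miR-539-5p at 0.36 (adjusted p = 0.0738). In the members that rose, each cKO array lay above both wild-type arrays under the main scaling.

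Markers of fibroblasts and smooth muscle rose under the main scaling in 8 of 8 tested members, against 36% of all tested miRNAs, with a median of 0.42 that was −0.07 under control-probe scaling. miR-199a-5p, expressed with miR-214 from the antisense transcript of Dnm3 in mesenchyme, was at 4.14 and 4.22 in cKO against 3.68 and 3.64 in wild type (0.52 ± 0.04). miR-199a-3p was at 4.82 and 4.82 against 4.38 and 4.28 (0.48 ± 0.07), and miR-214-3p at 2.07 and 2.09 against 1.69 and 1.66 (0.41 ± 0.05). miR-143-3p of smooth muscle rose by 0.21. Of these 4, miR-199a-5p stayed above 0 under control-probe scaling (0.02), while miR-143-3p (−0.29), miR-214-3p (−0.09) and miR-199a-3p (−0.01) did not. Relative to all tested the list's median lay between 0.18 and 0.30 under the 6 scalings.

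The miRNAs of skeletal muscle, which sustain myoblast differentiation, rose in 5 of 5 tested members under the main scaling, against 36% of all tested, with a median of 0.34 that was −0.16 under control-probe scaling and −0.05 without scaling. miR-206-3p was at 2.31 and 2.19 in cKO against 1.98 and 1.92 in wild type (0.30 ± 0.06), miR-133b-3p changed by 0.31, miR-1a-3p by 0.36 and miR-499-5p by 0.46; all 4 were below 0 under control-probe scaling. Both arms of miR-126a, from an intron of the endothelial gene Egfl7, rose. miR-126a-5p was at −2.82 and −2.89 in cKO against −3.50 and −3.46 in wild type (0.63 ± 0.06), and 0.13 under control-probe scaling. miR-126a-3p was at 1.13 and 1.27 against 0.80 and 0.87 (0.36 ± 0.06), and −0.13 under that scaling.

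In blood cells the picture was mixed. The red cell miRNAs did not pass in 3 of 3 tested members. miR-451a, which is matured by Ago2 without Dicer, was at 2.00 and 1.83 in cKO against 1.73 and 2.01 in wild type, so that the genotypes overlapped (0.05 ± 0.22, adjusted p = 0.939, 95% interval −0.52 to 0.61). miR-144-3p, from the same transcript, was at −0.29 ± 0.24 and miR-486a-5p at 0.22 ± 0.11. Of 4 tested white blood cell miRNAs 2 rose, a share near the 36% of all tested: miR-146a-5p (0.51 ± 0.03) and miR-223-3p (0.34 ± 0.06, but −0.15 under control-probe scaling), both known from myeloid cells. miR-142a-3p was at 0.26 (adjusted p = 0.0608) and miR-142a-5p at 0.10.

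In cartilage and nerve the lists were short. Of 4 cartilage miRNAs 1 rose (36% of all tested did), namely miR-455-3p (0.43 ± 0.08); it was at −0.07 under control-probe scaling. miR-140-3p was at 0.65 and −0.72 in cKO against −0.02 and −0.43 in wild type, and miR-140-5p at −0.76 and −2.05 against −1.46 and −1.78. The first cKO pool was thus the highest array and the second the lowest for both arms, and without the first cKO pool their changes of 0.20 and 0.22 became −0.49 and −0.43. miR-455-5p was at 0.13. Of 4 tested nerve and glia miRNAs 3 rose under the main scaling, beside that same 36% of all tested. These were miR-128-3p (0.52), miR-218-5p (0.34) and miR-219a-5p (0.22), of which the last 2 were below 0 under control-probe scaling. miR-338-3p was at 0.22 (adjusted p = 0.0871). The neuronal miR-124-3p and miR-9-5p were not detected on both arrays of any group. The part of a change in cell make-up in these values was not tested.

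Families of broad expression followed the scaling. In the miR-15 and miR-16 family, which arrests the cell cycle, 6 of 7 rose under the main scaling, against 36% of all tested, and the median of 0.28 was −0.21 under control-probe scaling. miR-503-5p was at 0.62 and 0.60 in cKO against 0.26 and 0.20 in wild type (0.38 ± 0.03), miR-16-5p rose by 0.25, and miR-15b-5p did not pass (0.08); the first 2 were below 0 under control-probe scaling. In the group of miR-125, miR-99 and miR-100, 3 of 5 rose beside that same 36%: miR-125b-5p, miR-125a-5p (0.30) and miR-100-5p (0.24), each of which was below 0 under control-probe scaling, and miR-99a-5p and miR-99b-5p, at 0.03 and −0.07, did not pass. miR-29a-3p, of the collagen-repressing miR-29 family, rose by 0.35 and 2 relatives did not pass. In the miR-30 family 2 of 7 rose, miR-30e-3p and miR-30a-3p (0.19), beside the 36% of all tested. Both miR-29a-3p and miR-30a-3p were below 0 under control-probe scaling. Of the miRNAs made without Drosha but with Dicer, miR-1224-5p was at −0.12, miR-484 at 0.00 and miR-320-3p at 0.10, and none passed (0 of 3, of which none had an unadjusted p under 0.05).

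**Figure D4:**
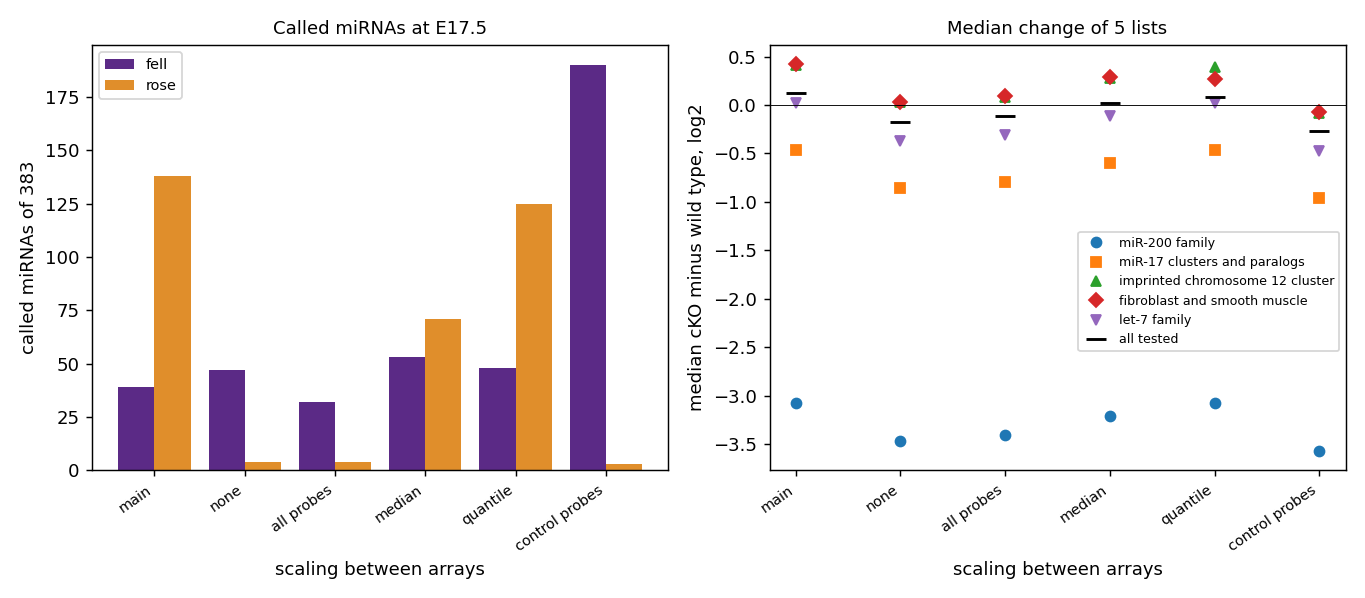
Left, number of the 383 tested miRNAs called lower and higher in cKO at E17.5 (vertical axis) under each of 6 ways of scaling the arrays (horizontal axis). Right, median change of 5 lists and of all tested miRNAs (log2) under the same scalings; the miR-200 list stays below −3.0 throughout, whereas the lists of the chromosome 12 cluster and of fibroblasts range from 0.41 and 0.42 to −0.08 and −0.07 and stay above the marker of all tested.

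The balance of falls and increases followed the scaling. Increases made up 78.0% of the calls under the main scaling (138 higher, 39 lower), 72.3% with quantile scaling (125 and 48) and 57.3% with median scaling (71 and 53). Their share dropped to 11.1% when all probes set the scale (4 and 32), to 7.84% for unscaled arrays (4 and 47) and to 1.55% when the control probes did (3 and 190). The median change over all tested miRNAs was 0.13, 0.09, 0.02, −0.11, −0.18 and −0.27 in the same order. Of the 138 increases, 21 were called under 1 scaling, 51 under 2, 63 under 3, 1 under 5 and 2 under all 6. The number of increases also rested on single arrays, with 81 left without the second E17.5 wild-type array. Another probe was detected for 38 of the 39 falls, and in 37 at least 1 such probe had the same sign. For the increases this held in 115 of 119. Sign alone is counted, on the same arrays and scaling. Some of these other probes lay near 0: −0.005 against −0.25 for miR-185-5p and 0.007 against 0.40 for miR-496a-3p. For miR-376b-5p the values were 0.03 against 0.48, and for miR-382-3p 0.06 against 0.48.

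The E16.5 arrays give the same comparison a day earlier. Of the 39 falls 37 had the same direction at E16.5, and these 37 also passed there. The other 2 were miR-6997-5p and miR-31-3p, the latter at the floor on all 4 arrays of E16.5. Of the 138 increases 128 had the same direction and 88 also passed. These counts hold under the main scaling, where the median change of all tested miRNAs at E16.5 was 0.19. A change above 0 was thus common there. The 11 epithelial miRNAs were somewhat lower at E17.5 relative to wild type than at E16.5 in 10 of 11, the difference of the changes ranging from −0.58 to 0.18 with a median of −0.28, against 0.05 over all tested. None of these differences passed (0 of 11, of which 3 had an unadjusted p under 0.05), so that a deeper loss at E17.5 was not shown. Among the 10 that went deeper the lowest adjusted p by limma's interaction test was 0.131, for miR-205-5p. miR-183-5p was the exception in direction (0.18) and had the lowest adjusted p of the 11, 0.0614. Its cKO arrays were at the floor at both stages.

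**Figure D5:**
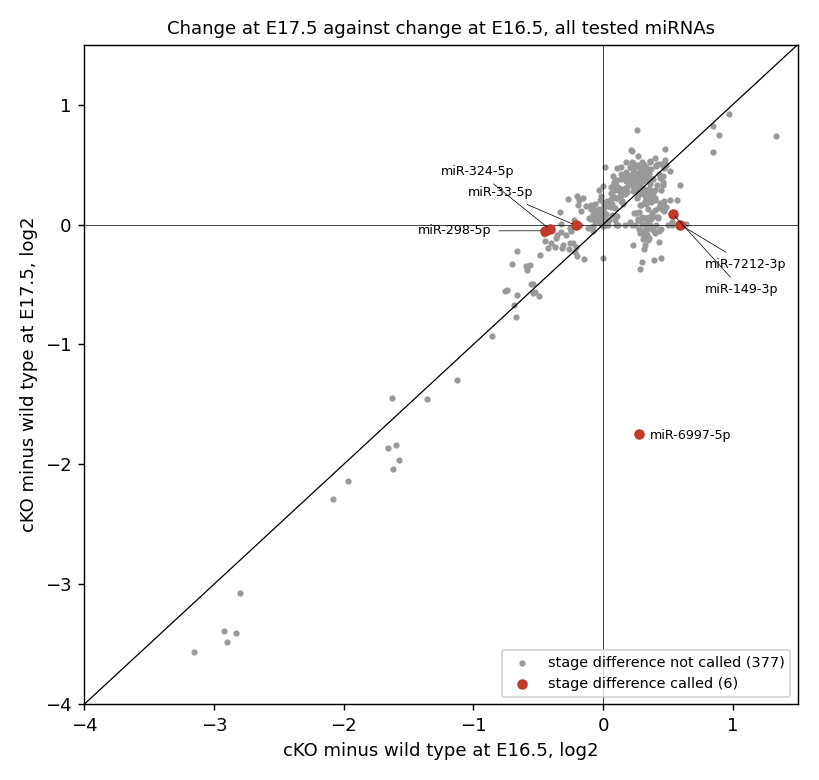
Change in cKO against wild type at E17.5 (vertical axis, log2) against the change at E16.5 (horizontal axis, log2) for the 383 tested miRNAs, with the line of equal change; red points are the 6 miRNAs whose change differed between stages by limma's interaction test. miR-6997-5p stands alone at −1.74 against 0.28, and the epithelial miRNAs lie near the line at the lower left.

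Across all tested miRNAs the change differed between stages for 6 (1.57%), and 105 had an unadjusted p under 0.05. The largest such difference was that of miR-6997-5p. At E16.5 its level was −2.12 and −2.30 in cKO against −2.62 and −2.35 in wild type, a change of 0.28 (adjusted p = 0.0856). At E17.5 the cKO arrays were still at −2.35 and −2.32, whereas the wild-type arrays stood at −0.55 and −0.64. The fall at E17.5 thus goes with a higher level in the 2 wild-type pools of that stage. The difference between the changes was −2.02 ± 0.16 (adjusted p = 0.00593) and passed under 5 of the 6 scalings, with adjusted p = 0.0546 under the remaining 1. Whether this reflects the stage or the 2 wild-type pools cannot be told apart with 1 pair of arrays per group.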

How the data were processed

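Footpad skin miRNAs were measured on 8 single-colour Agilent arrays, of which the 4 of E17.5 are compared here. Per the file headers Agilent Feature Extraction 11.5.1.1 was the image software, and the deposited scanner files hold a background-subtracted fluorescence intensity per spot in linear units, unscaled between arrays. The deposited value table equalled it within 0.02 for 100% of spots above 0 and served as an alternative. Saturation was absent (0 spots). Outlier spots, 2.84% to 6.02% per array, were dropped.

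Spots were averaged per probe, divided by the array's 75th percentile over 474 probes detected on all arrays, raised to a floor (each array's 5th percentile of detected probes, then the median of these) and put on the log2 scale. A miRNA is its probe with the highest mean. The 4 group means were fitted to all 8 arrays with limma 3.58.1 (eBayes with a trend, 4 residual degrees of freedom) in R 4.3.3, and p-values were adjusted by Benjamini-Hochberg at 0.05. The same fit gave the difference between stages. The script was tested on simulated data. A bound ("at least") sets the group not above background at the floor. Besides the main scaling, arrays were left unscaled or scaled on all probes, the median, quantiles or 19 positive control probes. The other alternatives were normexp background, other filters and floors, the mean over probes, outlier spots kept, the E17.5 arrays alone, no trend, a replicate block, each array left out, and Feature Extraction's total signal per miRNA, which was chosen after seeing the data.

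Sequences and positions come from RefSeq (GRCm38.p6), in which 330 of 383 tested miRNAs were matched by name. Named are the 20 lowest decreases, the 15 highest increases, the other arms of their hairpins, list members and the stage differences, as well as the remaining decreases. The members and lists were chosen with earlier results of these data known. Same-numbered arrays of different groups deviated together by r from −0.14 to 0.28, so the numbers were not taken as pairs. Figures were drawn with matplotlib.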

Additional observations from a re-analysis of the deposited data

Results flagged for a closer look

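The change in cKO against wild type differed between E17.5 and E16.5 by limma's interaction test for 6 miRNAs, given here as the E17.5 change minus the E16.5 change. It was −2.02 for miR-6997-5p (−1.74 against 0.28), in which the E17.5 wild-type arrays stood apart from the other 6. The others were smaller and most lay near the floor. miR-7212-3p differed by −0.59: all 4 E17.5 arrays were at the floor, against −3.35 and −3.33 for cKO at E16.5 and −3.94 and −3.93 for wild type. miR-149-3p differed by −0.45, with changes of 0.09 at E17.5 and 0.54 at E16.5. miR-298-5p differed by 0.40, its fall of 0.45 at E16.5 being −0.05 at E17.5. miR-324-5p differed by 0.37, with −0.41 at E16.5 and −0.04 at E17.5. miR-33-5p differed by 0.20 and was at or near the floor on all arrays. The call of miR-6997-5p passed under 5 of the 6 scalings, that of miR-7212-3p under 4, those of miR-149-3p, miR-298-5p and miR-324-5p under 2 and that of miR-33-5p under 1.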

How the results depend on the processing

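The 20 largest falls kept their call under every alternative that gave a value, except miR-221-3p, at 0.21 with outlier spots kept. The number of falls was 190 with control-probe scaling and within 1.5 times of 39 under each other alternative, from 33 to 41 with 1 array left out, of which 33 to 39 were shared. The number of increases was 4 without scaling, 4 with all-probe, 71 with median and 3 with control-probe scaling. With 1 array left out it was 81 to 143: 81 without the second E17.5 wild-type array, 95 without the first, 100 without the second E17.5 cKO array and 107 without the first. The 6 stage differences became 3 without scaling, 0 with all-probe (24 with quantile, 3 with median) scaling, 13 with normexp background, 1 when limited to miRNAs detected on all arrays, 1 with a lower floor, 14 with the mean over probes and 19 with Feature Extraction's total signal. With 1 array left out there were 4 to 38, 38 without the second and 10 without the first E16.5 cKO array, 15 with replicate 2 of the E16.5 wild type removed and 13 with replicate 1 of the E17.5 cKO removed. With the replicate number, which is also the slide row, as a block, 37 fell and 132 rose, and 6 stage differences were called; sharing a number was not taken as pairing.

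Changes of opposite sign to the main scaling, called under either, were these; the cause was not tested beyond the shift of all miRNAs that each scaling brings. Control-probe scaling gave miR-106b-3p −0.28, miR-181a-5p −0.22, miR-196b-5p −0.23, miR-30e-5p −0.41, miR-483-5p −0.20, miR-379-5p −0.076, miR-23b-3p −0.40, miR-125b-5p −0.14, let-7a-5p −0.39, miR-503-5p −0.12, miR-16-5p −0.24, miR-15b-5p −0.42, miR-29a-3p −0.14, miR-30a-3p −0.22, miR-125a-5p −0.19, miR-99a-5p −0.47, miR-100-5p −0.25, miR-10a-5p −0.40, miR-10b-5p −0.39, miR-181b-5p −0.29, miR-181c-5p −0.33, miR-199a-3p −0.011, miR-214-3p −0.090, miR-143-3p −0.29, miR-206-3p −0.20, miR-1a-3p −0.14, miR-133b-3p −0.19, miR-499-5p −0.040, miR-126a-3p −0.13, miR-455-3p −0.066, miR-455-5p −0.37, miR-223-3p −0.15, miR-142a-5p −0.11, miR-218-5p −0.16, miR-219a-5p −0.28, miR-127-3p −0.081, miR-411-5p −0.010, miR-433-3p −0.39, miR-484 −0.49, miR-320-3p −0.40, miR-17-3p −0.37, the stage difference of miR-33-5p −0.088. Without scaling they were miR-181a-5p −0.12, miR-196b-5p −0.12, miR-483-5p −0.097, miR-125b-5p −0.034, miR-503-5p −0.0086, miR-16-5p −0.13, miR-29a-3p −0.037, miR-30a-3p −0.12, miR-125a-5p −0.087, miR-100-5p −0.14, miR-181b-5p −0.18, miR-181c-5p −0.22, miR-143-3p −0.18, miR-206-3p −0.089, miR-1a-3p −0.029, miR-133b-3p −0.081, miR-126a-3p −0.024, miR-223-3p −0.045, miR-218-5p −0.053, miR-219a-5p −0.17, miR-17-3p −0.26, the stage difference of miR-33-5p −0.28. All-probe scaling gave miR-181a-5p −0.058, miR-196b-5p −0.067, miR-483-5p −0.040, miR-16-5p −0.077, miR-30a-3p −0.059, miR-125a-5p −0.030, miR-100-5p −0.087, miR-181b-5p −0.13, miR-181c-5p −0.17, miR-143-3p −0.12, miR-206-3p −0.032, miR-133b-3p −0.024, miR-219a-5p −0.11, miR-17-3p −0.20, the stage difference of miR-33-5p −0.16. Median scaling gave miR-17-3p −0.0093, and normexp background miR-185-5p 0.077, the stage difference of miR-33-5p −0.033.

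A fit of all miRNAs without a filter could not be made, since most lie at the floor on all arrays, and the E17.5 arrays alone give no stage difference. Low signal limits what is measured: 28 tested miRNAs lay at the floor on all 4 E17.5 arrays, and 2 pools per group limit every error.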
